A study of Mus musculus with 4 samples.

Results

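The epithelial cells of maxillary and mandibular mouse molars were compared between the embryonic stage E15.5 and postnatal day 1 (P1). They were chosen by a marker rule in 4 single-cell RNA-seq libraries of wild-type mice, strain WTB6 in the labels. A cell needed at least 1000 UMIs (unique molecular identifiers, counted molecules) with under 10% from mitochondrial transcripts, at least 3 UMIs per 10000 of Epcam, Cdh1, Krt14 and Krt5 together, and at most 5 per 10000 of Col1a1, Col1a2 and Col3a1 together. Of 56940 barcodes in all, 5040 were epithelial by this rule: 748 in E15.5 maxillary, 2684 in P1 maxillary, 108 in E15.5 mandibular and 1500 in P1 mandibular molars.

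Each library was made from 6 pooled tooth organs, with 1 library per stage and jaw, on the 10x Genomics Chromium 3′ platform without any sorting. The labels name the embryonic stage by the whole day, the series text gives it as E15.5, and the postnatal teeth are called P0/P1 in the series text and P1 in the labels. Values listed for the 4 libraries run from E15.5 to P1 in maxillary and then from E15.5 to P1 in mandibular molars. No stage has a replicate within a jaw, so no p-value is given, both jaws are printed side by side, and all intervals cover counting error only. A level is the UMIs of a gene summed over the epithelial cells of a library per 1000000 UMIs (CPM), and in such sums fewer cells of a kind and less RNA per cell cannot be told apart.

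The dental epithelium grows from the oral lining into the enamel organ, which folds around the dental papilla. Its inner layer becomes ameloblasts, the cells that secrete enamel matrix, while the oral lining above stratifies and makes keratins and surface proteins. Shh, Wnt, FGF and BMP signals pass between the enamel organ and the mesenchyme below it as the crown takes shape.

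The depth of the libraries differed. Total counts were 109723360 UMIs in E15.5 maxillary, 128812956 in P1 maxillary, 86659227 in E15.5 mandibular and 139873101 in P1 mandibular molars. Epithelial cells had a median of 13236.5, 5225.5, 13648.5 and 12184 UMIs in the 4 libraries, and together they held 11943258, 22964673, 1960551 and 20617503 UMIs. P1 maxillary cells were thus the shallowest, and E15.5 mandibular molars gave the fewest cells and molecules.

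The 7 genes of the rule chose the cells, and their levels are only a description. Krt5 and Krt14, the basal keratins, were at 2315 and 1905 CPM in E15.5 maxillary, 1088 and 1185 in P1 maxillary, 1457 and 1207 in E15.5 mandibular and 1333 and 1690 in P1 mandibular epithelium. Epcam was between 432 and 632 CPM and Cdh1 between 131 and 268 CPM. Col1a1, the most abundant collagen of mesenchyme, stayed between 29.0 and 64.7 CPM. Just inside the epithelial threshold, with 3 to 4 marker UMIs per 10000, were 10, 130, 3 and 29 cells of the 4 libraries, and just outside it, with 2 to 3, were 28, 73, 4 and 36. At the collagen threshold 48, 118, 2 and 120 cells lay at 4 to 5 UMIs per 10000 and 21, 80, 2 and 81 at 5 to 6. A cell could pass on 1 marker UMI, as 10.4% of the P1 maxillary cells and 3.07% to 6.48% of those of the other 3 libraries did.

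The label held against genes that the rule did not use. Dsp (desmoplakin, a desmosome protein) was at 806 and 426 CPM at E15.5 and P1 in maxillary and at 647 and 456 CPM in mandibular epithelium. Trp63, which maintains stratified epithelium, was at 271, 390, 266 and 536 CPM in the 4 libraries. The 12 mesenchymal markers summed to 313, 197, 203 and 153 CPM, against 6980, 6603, 6309 and 7620 CPM in mesenchyme-gated cells of the same libraries.

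Other cells and tissues were represented as well, and unevenly. Haemoglobin and other erythroid transcripts summed to 13168 CPM in E15.5 maxillary, 3988 in P1 maxillary, 17380 in E15.5 mandibular and 7720 in P1 mandibular epithelium, with Hbb-bs the most abundant in every library. Glial and neuronal markers summed to 52.5, 513, 42.3 and 124 CPM, and 18.3% of P1 maxillary cells carried at least 10 of their UMIs per 10000, against 0.926% or fewer of the cells of the other libraries. Markers of gland-like or nasal epithelium, such as Wfdc18 and Bpifa1, summed to 218, 473, 36.2 and 43.9 CPM, and cells with at least 10 of them per 10000 made up 2.41%, 11.1%, 0.926% and 0.6% of the epithelium. The P1 maxillary epithelium therefore held more of both kinds of marker than any other library, and their part in the results below was not tested beyond the counts without such cells. Immune markers (Lyz2 the most abundant) summed to 121, 102, 24.5 and 91.4 CPM, endothelial markers to 43.6, 62.7, 23.5 and 52.2, muscle markers to 212, 32.0, 38.3 and 53.1, cartilage markers to 60.6, 25.7, 6.12 and 8.58, melanocyte markers to 19.1, 44.1, 15.8 and 48.6, and odontoblast and bone markers, chiefly Alpl, to 13.5, 180, 66.3 and 282 CPM. Alpl is also made by enamel organ cells.

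The P1 libraries shared barcodes. The maxillary and mandibular P1 files had 7131 barcodes in common, 38.1% and 36.8% of their barcodes, whereas any other pair of libraries shared 28 to 70. A barcode found in both files held 12088 UMIs in the maxillary one and 2870 in the mandibular one at the median. The log2 ratio of the paired totals was 2.07 at its median and 2.003 to 2.18 from the 5th to the 95th percentile. The rule kept them in P1 maxillary and removed them from P1 mandibular molars. In P1 maxillary epithelium 1138 cells (42.4%) with a median of 12599 UMIs were shared and held 71.9% of the UMIs, and 1546 unshared cells had a median of 3117 UMIs. Which tooth a shared cell came from cannot be told apart with these files, so the main results are also given without the shared cells, and maxillary results at P1 rest mostly on them. Shared and unshared cells also differed in content. In shared and unshared P1 maxillary cells, Ncam1 was at 54.7 and 443 CPM and Gstm1 at 4.8 and 1661 CPM. Sema3e (74.1 and 22.3 CPM) went the other way, and these genes were picked for opposite directions in the jaws. Ratios without the shared cells thus compare another mix of cells with E15.5, and the part of that mix in them was not tested.

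Among the leading genes between E15.5 and P1 were genes of enamel secretion, higher at P1 in both jaws, and genes of suprabasal and surface layers, lower at P1. A gene was considered if it reached 20 CPM in the higher stage in each jaw, and 7317 of 32285 genes did. Of these, 352 (4.81% of those considered) were at least 2-fold higher at P1 in both jaws and 154 (2.10%) at least 2-fold lower, 506 (6.92%) in all. In maxillary epithelium alone 554 (7.57%) were higher and 224 (3.06%) lower, in mandibular epithelium 523 (7.15%) and 430 (5.88%). Of the 352 higher genes 225 were under 20 CPM at E15.5 in at least 1 jaw, and of the 154 lower genes 90 were so at P1, so these entered only through the stage in which they were high and had to differ there. Counts of list members below are descriptions to be read against the shares of all genes. Another 35 passed 2-fold in opposite directions in the jaws, 649 passed it in 1 jaw only, and 5532 had the same sign in both. The median log2 ratio of all genes considered was 0.08 in maxillary and -0.02 in mandibular epithelium.

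**Figure D1:**
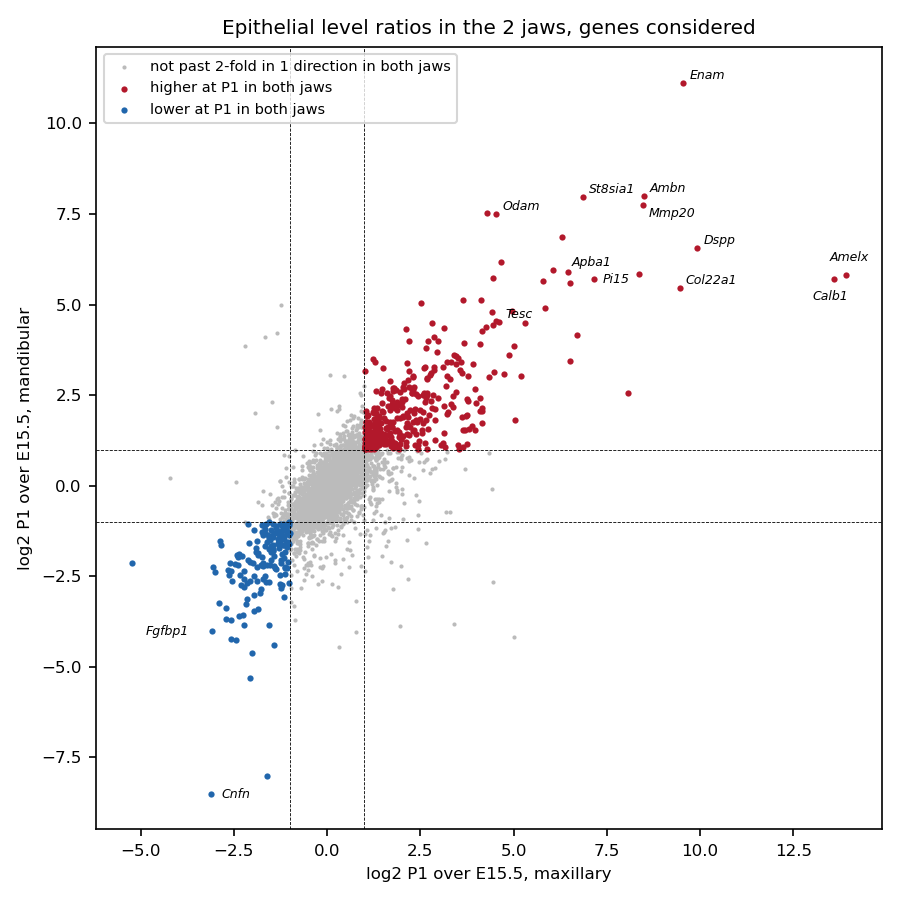
Log2 ratio of the epithelial level at P1 over E15.5 in maxillary (horizontal axis) and mandibular molars (vertical axis), with 1 point per gene considered and dashed lines at 2-fold. The 352 red genes lie in the upper right corner, led by enamel matrix genes, and the 154 blue genes in the lower left, with Cnfn lowest in mandibular molars.

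These counts were smaller without the shared barcodes. The rule had already removed those from P1 mandibular molars, so only the maxillary ratios could change in this setting. Of the 352 genes higher at P1, 126 remained among 140, and of the 154 lower genes, 101 remained among 114. Of the calls made with all cells, 77 had the opposite sign in maxillary epithelium. With only the shared cells in P1 maxillary epithelium, 398 genes were higher and 252 lower. A larger part of the lower than of the higher genes thus remained.

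The levels were also compared with other cells of the same libraries. Of the 352 higher genes, 228 had a P1 level above that of mesenchyme-gated and immune-gated cells of the same library in both jaws, and 107 were also 2-fold higher at P1 in mesenchyme-gated cells of both jaws, as were 258 (3.53%) of all 7317 genes considered. Of the 154 lower genes, 101 were above both other compartments at E15.5, and 23 were also 2-fold lower in mesenchyme, as were 60 (0.820%) of all. Molecules of epithelial genes also occurred in the mesenchyme-gated cells, and their part in these counts was not tested. Genes in the lead are taken below from those above both compartments, with at least 50 CPM, ranked by the smaller of the 2 ratios. They were picked by these same values, so a lack of overlap between the stages among them is only a description.

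The enamel matrix and its proteases came first. Amelx encodes amelogenin, the main enamel matrix protein, and lies at chrX:169176114-169187200 (mm10, minus strand). From E15.5 to P1 it went from 3 UMIs (0.25 CPM) to 89575 (3901 CPM) in maxillary epithelium and from 605 (309 CPM) to 356738 (17303 CPM) in mandibular epithelium. Both P1 libraries were above both E15.5 libraries. The log2 ratio was 13.92 (95% interval 12.38 to 16.20) in maxillary and 5.81 (5.69 to 5.93) in mandibular epithelium.

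Enam (enamelin, chr5:88487975-88506049, plus strand) had 0 and 4318 UMIs at E15.5 and P1 in maxillary epithelium and 1 and 23509 in mandibular epithelium, or 0, 188, 0.51 and 1140 CPM. Its log2 ratio was at least 9.55 in maxillary epithelium, with 3 UMIs put in place of the 0, and 11.13 (8.65 to 16.43) in mandibular epithelium. Ambn (ameloblastin, chr5:88455991-88468531, plus strand), the neighbour of Enam on the same chromosome, was at 0.25 and 90.0 CPM in maxillary and 1.53 and 390 CPM in mandibular epithelium. E15.5 levels of Enam and Ambn rested on 0 to 3 UMIs, and P1 levels on 2066 or more. The ratio of Ambn was 8.48 (6.94 to 10.76) and 7.99 (6.45 to 10.27) on the log2 scale.

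Mmp20, the protease that trims amelogenin during secretion, was at 0 and 88.6 CPM in maxillary and 1.53 and 330 CPM in mandibular epithelium, at least 8.46 and 7.75 (6.20 to 10.03) on the log2 scale. Odam, an ameloblast-associated protein of the junctional and maturing epithelium, was at 6.95 and 162 CPM in maxillary and 2.04 and 369 CPM in mandibular epithelium, a log2 ratio of 4.54 (4.23 to 4.87) and 7.50 (6.14 to 9.38). Dspp, best known as the dentin sialophosphoprotein of odontoblasts, was at 0 and 245 CPM in maxillary and 7.14 and 671 CPM in mandibular epithelium, and at 0.02 and 44.3 CPM and 0 and 134 CPM in the mesenchyme-gated cells. Of the 10 members of this list 6 were considered, and 5 of them reached 20 CPM only through P1 in both jaws and Amelx in maxillary epithelium, so that their being higher follows from the filter (4.81% of all genes considered were higher). Amtn, Odaph, Klk4 and Acp4, genes mostly of later enamel maturation, did not reach 20 CPM in both jaws. The 10 genes of the list summed to 9.13, 4687, 322 and 20259 CPM in the 4 libraries.

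Calb1 (calbindin, a calcium buffer of secretory ameloblasts) was at 0.08 and 1026 CPM in maxillary and 55.6 and 2893 CPM in mandibular epithelium. Its log2 ratio was 13.58 (11.10 to 18.88) and 5.70 (5.43 to 5.99). The other leading genes were St8sia1 (a sialyltransferase that makes the ganglioside GD3), Apba1 (an adaptor protein of vesicle transport), Pi15 (a peptidase inhibitor), Col22a1 (a collagen of tissue junctions) and Tesc (tescalcin, a calcium-binding protein). Their E15.5 levels were 0.17 to 8.67 CPM and their P1 levels 58.4 to 213 CPM, and both P1 libraries were above both E15.5 libraries for each. Tesc had the smallest of these ratios, 4.61 (4.26 to 4.99) and 4.51 (3.83 to 5.29) on the log2 scale.

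**Figure D2:**
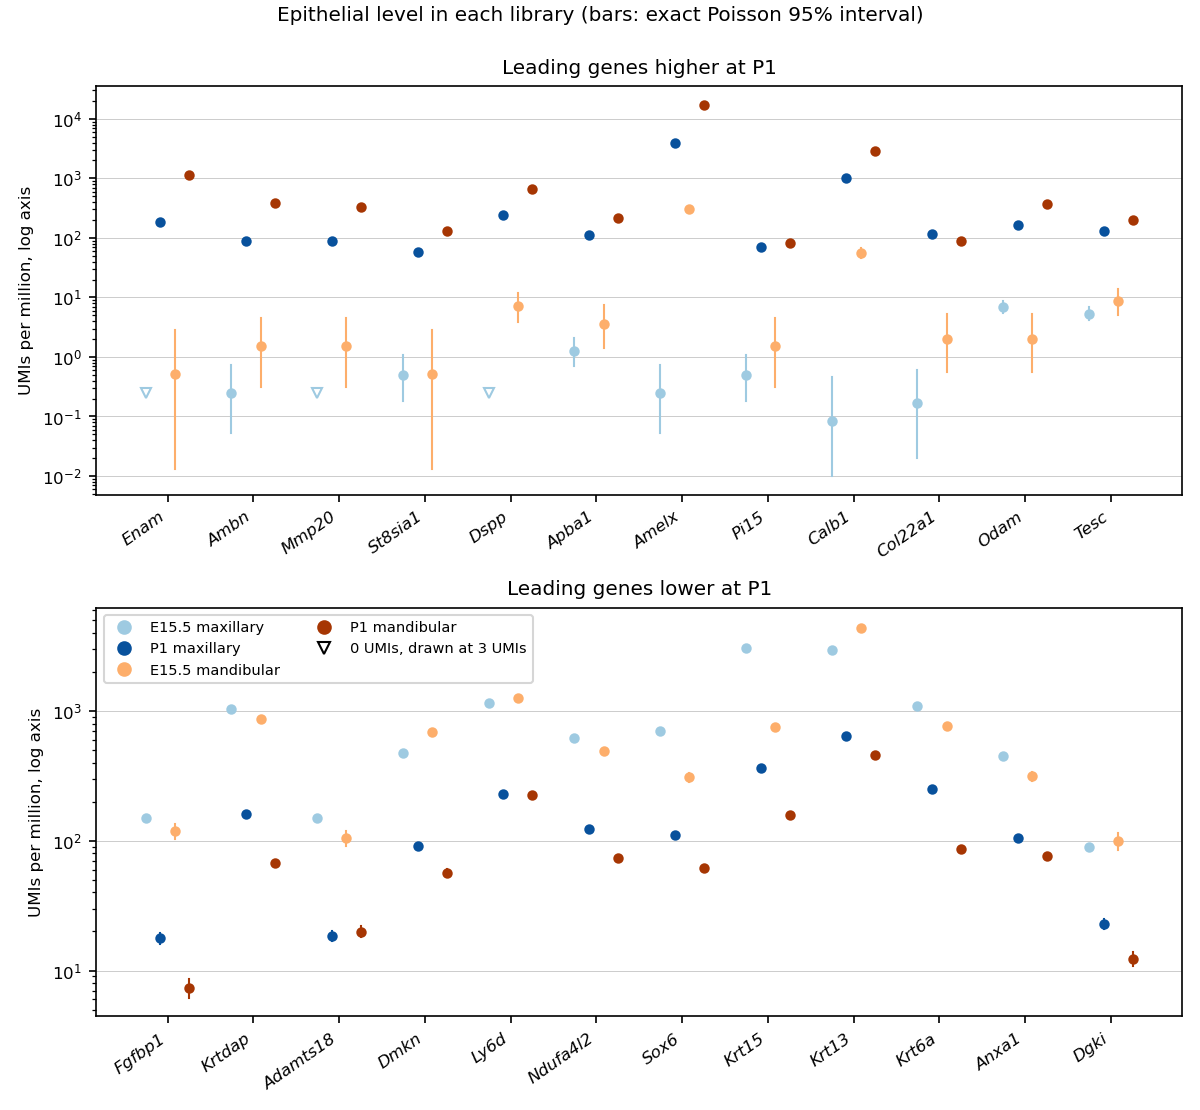
Epithelial level, in UMIs per 1000000 on a log axis, of the 12 leading genes higher at P1 (top) and the 12 lower at P1 (bottom) in each of the 4 libraries, with exact Poisson 95% intervals as bars and open triangles for genes at 0, drawn at 3 UMIs. The stages do not overlap for any of the 24 genes, which were ranked by these same values, so this is only a description. The E15.5 mandibular level of Amelx (309 CPM) and Calb1 (55.6 CPM) stands above the maxillary one.

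The E15.5 mandibular values came from 1 cell. A cell of 12735 UMIs held 604 of the 605 Amelx UMIs, all Ambn, Enam, Mmp20 and Dspp UMIs and 99.1% of the Calb1 UMIs of that library. Its barcode was in neither P1 file. Without it the mandibular log2 ratio was 15.04 for Amelx and 12.46 for Calb1, and at least 9.53 for Enam, 8.77 for Dspp, 7.74 for Mmp20 and 6.38 for St8sia1, while 351 genes were higher and 156 lower in both jaws.

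At P1 the same transcripts lay in a defined part of the epithelium. Cells with at least 10 UMIs per 10000 of Amelx, Ambn and Enam together numbered 0, 199 (7.41%), 1 (0.926%) and 494 (32.9%) in the 4 libraries. They held 99.3% and 99.5% of the Amelx UMIs of P1 maxillary and P1 mandibular epithelium and, of genes not used to choose them, 95.2% and 97.7% of Dspp, 96.8% and 99.0% of Mmp20 and 90.0% and 96.2% of Calb1. Odam went the other way, with 1.6% and 0.7% of its UMIs in these cells. Without these cells 249 genes were higher and 110 lower in both jaws, and St8sia1, Apba1, Pi15, Calb1, Col22a1, Odam and Tesc were still among the higher ones. Amelx was as well, but it had chosen the cells, and its remaining 29.2 and 127 CPM at P1 were close to the 26.9 and 127 CPM of mesenchyme-gated cells and below the 559 and 909 CPM of immune-gated cells.

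Amelx molecules were also found in cells that should lack them. At P1, 21.1% of maxillary and 82.1% of mandibular epithelial cells had an Amelx UMI, against 8.87% and 72.4% of the immune-gated cells (median 5225.5 and 12184 UMIs in epithelium, 2908 and 7649 in immune cells). Thinned to 1000 UMIs a cell, the shares were 9.31% and 42.1% in epithelium and 2.06% and 19.8% in immune cells. At E15.5, 0.401% of maxillary and 1.85% of mandibular epithelial cells had a UMI, next to 0.244% and 0.676% of immune cells. The levels were 559 and 909 CPM in immune-gated and 26.9 and 127 CPM in mesenchyme-gated cells at P1, below the 3901 and 17303 CPM of the epithelium. A share of cells with an Amelx UMI was therefore not read as a share of expressing cells. The same holds for Ambn, whose UMIs at P1 were found in a larger share of mesenchyme-gated than of epithelial cells without thinning.

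The maxillary values of the enamel genes were much lower without the shared barcodes. In P1 maxillary epithelium the level was 5414 CPM in shared and 37.6 CPM in unshared cells for Amelx, 261 and 1.1 CPM for Enam, 123 and 4.8 CPM for Ambn and 340 and 2.5 CPM for Dspp. The maxillary log2 ratio without the shared cells was 7.23 for Amelx, 9.21 for Calb1, 5.32 for Apba1 and 4.83 for Tesc, which were still higher in both jaws, but the 37.6 CPM of Amelx was near the 26.9 CPM of mesenchyme-gated and below the 559 CPM of immune-gated cells. The ratio was then at least 2.11 for Enam, 1.62 for Mmp20 and 3.30 for Dspp, each with 0 UMIs at E15.5, and 4.25 for Ambn, all genes then under 20 CPM in maxillary epithelium, and Odam was at -1.32. Of the 12 leading genes higher at P1, 4 were still counted as such without the shared cells.

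**Figure D3:**
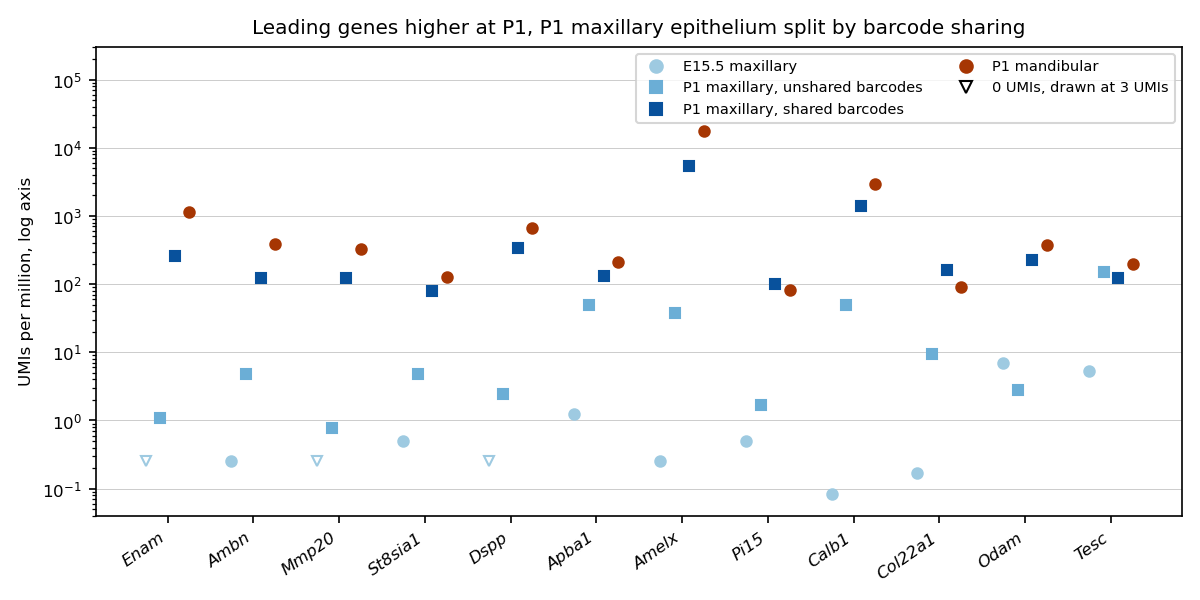
Level, in UMIs per 1000000 on a log axis, of the 12 leading genes higher at P1 in E15.5 maxillary, P1 maxillary and P1 mandibular epithelium, with P1 maxillary cells split into those whose barcode is also in the P1 mandibular file (dark squares) and the rest (light squares). The unshared cells lie below the shared ones for 11 of the 12 genes, Tesc being the exception, and below the E15.5 level for Odam.

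The promoters of some of these genes are printed to show what precedes genes that were higher or lower together. The 60 bases upstream of the RefSeq start (build GRCm38.p6, on the strand of the gene) are given for 4 enamel genes that were higher at P1 and for 2 genes that were lower and were picked because they hold TATAAA, with TATAAA, the letters of a TATA box, in capitals where it occurs. They lie at chrX:169187210-169187269 (Amelx, minus strand), chr5:88455931-88455990 (Ambn, plus strand), chr5:88487915-88487974 (Enam, plus strand), chr9:7628171-7628230 (Mmp20, plus strand), chr7:30787845-30787904 (Krtdap, plus strand) and chr19:20390672-20390731 (Anxa1, minus strand).
Amelx: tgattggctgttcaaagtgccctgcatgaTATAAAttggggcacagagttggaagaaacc
Ambn: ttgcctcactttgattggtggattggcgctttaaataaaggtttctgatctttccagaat
Enam: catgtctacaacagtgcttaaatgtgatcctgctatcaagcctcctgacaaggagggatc
Mmp20: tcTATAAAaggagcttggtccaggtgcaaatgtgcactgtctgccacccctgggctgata
Krtdap: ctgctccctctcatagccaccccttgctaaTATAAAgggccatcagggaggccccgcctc
Anxa1: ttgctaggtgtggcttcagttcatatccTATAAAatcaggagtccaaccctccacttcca
The letters began 31 bases before the start in Amelx, 30 in Krtdap, 32 in Anxa1 and 58 in Mmp20. On the gene's strand they were present in this window of 9 of the 266 higher genes with a promoter in the table (3.38%), 10 of the 101 lower genes (9.90%), 104 of the 5854 genes considered (1.78%) and 930 of all 27025 genes of the table (3.44%). On either strand the shares were 5.26%, 9.90%, 2.32% and 4.66%. Promoters were found for 16 of the 24 leading genes, 8 higher and 8 lower, of which Amelx, Mmp20, Krtdap and Anxa1 held the letters on their own strand and the other 12 did not. A match is only a description of the letters.

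Of the genes of ameloblast differentiation outside the matrix list, 6 were higher at P1 in both jaws and 1 was lower. Satb1, a chromatin organiser, was at 16.4 and 483 CPM at E15.5 and P1 in maxillary and 64.3 and 787 CPM in mandibular epithelium, a log2 ratio of 4.88 (4.68 to 5.09) and 3.61 (3.36 to 3.88). Sp6 (epiprofin), which is required for enamel, was at 15.6 and 179 CPM and at 107 and 218 CPM, with ratios of 3.52 and 1.03. Slc4a4, a bicarbonate transporter, was at 33.8 and 297 CPM and at 118 and 542 CPM. Both P1 levels exceeded both E15.5 levels for these 3 genes. Of 13 considered amelogenesis genes outside the matrix list, Satb1, Itgb6, Slc4a4, Alpl, Dlx3 and Sp6 were higher in both jaws and Cldn10 lower, next to 4.81% and 2.10% of all genes, and 5 of the 6 were under 20 CPM at E15.5 in at least 1 jaw. Cldn10, a claudin, was at 76.1 and 34.7 CPM in maxillary and 226 and 47.4 CPM in mandibular epithelium, and its maxillary ratio was -0.55 without the shared barcodes.

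Satb1 and Itgb6 were the 2 of these that were also higher without the shared barcodes, with maxillary log2 ratios of 2.11 and 1.68, whereas Sp6 was at 0.76 and Slc4a4 at 0.41. Without the enamel-matrix cells Sp6 was no longer 2-fold higher in mandibular epithelium (0.32), and Satb1, Dlx3, Itgb6, Slc4a4 and Alpl were higher in both jaws.

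Among 20 considered transcription factors of the dental epithelium, Satb1, Dlx3, Dlx2 and Sp6 were higher and Lef1 was lower (4.81% and 2.10% of all genes were), and the 4 higher genes were under 20 CPM at E15.5 in at least 1 jaw. Sox2, which marks progenitors of the dental lamina, was at 119 and 64.4 CPM at E15.5 and P1 in maxillary and 53.6 and 5.38 CPM in mandibular epithelium. It was lower at P1 in each jaw, by 0.88 (0.78 to 0.99) and 3.31 (2.92 to 3.71) on the log2 scale, but the P1 maxillary level lay above the E15.5 mandibular one. In P1 maxillary epithelium Sox2 was at 12.4 CPM in shared and 197 CPM in unshared cells, and without the shared cells its maxillary ratio was 0.73. That library also held the most gland-like or nasal and the most glial and neuronal markers. Its Sox2 level is therefore not read as a level of dental progenitors. Sox2 was detected in 51.1%, 22.4%, 25.9% and 3.40% of cells, or 11.6%, 7.79%, 3.70% and 0.667% at 1000 UMIs, in the 4 libraries, with 1.44% or fewer of immune cells having a UMI.

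Signals of the enamel knot and later crown epithelium followed. Shh, the Hedgehog ligand of the knot and the inner enamel epithelium, was at 31.4 and 271 CPM in maxillary and 162 and 367 CPM in mandibular epithelium. The log2 ratio was 3.11 (2.96 to 3.26) and 1.18 (1.02 to 1.35), and both P1 levels were above both E15.5 levels. At 1000 UMIs, 2.81%, 12.3%, 9.26% and 28.5% of epithelial cells had a Shh UMI in the 4 libraries, against 0.752% or fewer of immune cells. Its unthinned shares were 7.22%, 29.2%, 21.3% and 63.1%. The enamel-matrix cells held 21.0% of the Shh UMIs in P1 maxillary and 40.5% in P1 mandibular epithelium.

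The Shh result in maxillary epithelium rested on the shared barcodes, with 369 CPM in shared and 18.4 CPM in unshared P1 cells and a ratio of -0.77 without the shared ones. Ptch1, the Shh receptor and a transcriptional target of the pathway, was at 183 and 225 CPM in maxillary and 185 and 231 CPM in mandibular epithelium, ratios of 0.30 and 0.32, and its maxillary ratio was -1.57 without the shared barcodes. Of 12 considered Hedgehog genes, 1, Shh, passed 2-fold in both jaws, a share near the 6.92% of all genes.

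Wnt ligands were mixed. Wnt6 was at 46.3 and 148 CPM in maxillary and 48.0 and 267 CPM in mandibular epithelium, a log2 ratio of 1.68 (1.55 to 1.81) and 2.48 (2.18 to 2.79). Wnt3a was at 7.79 and 47.9 CPM and at 12.7 and 63.4 CPM, and Wnt5a at 13.4 and 57.8 CPM and at 45.4 and 97.2 CPM. These 3 of 7 considered ligands passed 2-fold in both jaws, next to 6.92% of all genes, and Wnt3a and Wnt5a were under 20 CPM at E15.5 in at least 1 jaw. Thinned to 1000 UMIs a cell, Wnt5a turned direction in mandibular epithelium, with a ratio of -0.29. Wnt10a, a ligand whose deficiency alters the crown and roots in mice and humans, was at 38.6 and 48.7 CPM in maxillary and 34.2 and 92.6 CPM in mandibular epithelium, ratios of 0.34 and 1.44, while Wnt4 was at 268 and 134 CPM and at 189 and 138 CPM. Wnt6 and Wnt10a had larger ratios in mesenchyme-gated cells, 3.27 and 4.19 for Wnt6 and 3.38 and 4.07 for Wnt10a, and the difference between the compartments was not tested.

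No Wnt ligand passed 2-fold in both jaws without the shared barcodes, where 1.97% of all genes were higher and 1.61% lower. In a list this short, none is near those shares. The maxillary log2 ratio was then -1.31 for Wnt6, -1.33 for Wnt3a, 0.28 for Wnt5a and -2.01 for Wnt10a. Among 15 considered Wnt receptors, targets and feedback genes, Lgr5 (an R-spondin receptor) and Lef1 (a transcription factor of the pathway) were lower in both jaws and none higher, where 2.10% and 4.81% of all genes were, and at such shares 0 of 15 is no result. Lgr5 was at 63.3 and 17.1 CPM in maxillary and 91.8 and 14.9 CPM in mandibular epithelium, with ratios of -1.89 (-2.07 to -1.71) and -2.62 (-2.89 to -2.35). Being under 20 CPM at P1 in both jaws, Lgr5 entered only through E15.5. Lef1 was at 74.3 and 23.9 CPM and at 66.3 and 32.0 CPM. Both E15.5 levels were above both P1 levels for the 2 genes. Without the shared barcodes Lef1 was still lower in both jaws (-2.31 in maxillary epithelium), and Lgr5 just missed 2-fold in maxillary epithelium. Sostdc1, a secreted inhibitor of Wnt and BMP signals, was at 253, 311, 259 and 211 CPM in the 4 libraries.

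Of 23 considered BMP and TGF-beta genes, 4 were higher and 1 was lower at P1 in both jaws, where 4.81% and 2.10% of all genes considered were, and 3 of the 4, all but Tgfb2, were under 20 CPM at E15.5 in at least 1 jaw. Bambi, a decoy receptor, was at 13.7 and 212 CPM in maxillary and 104 and 303 CPM in mandibular epithelium, log2 ratios of 3.95 and 1.54. Smad6, an inhibitory Smad, had ratios of 2.88 and 2.11, the ligand Bmp4 2.55 and 1.47, and the ligand Tgfb2 2.39 and 1.43. Fst (follistatin, which binds activins and BMPs) went the other way, with 216 and 29.7 CPM in maxillary and 75.0 and 26.3 CPM in mandibular epithelium. Bambi, Smad6, Tgfb2 and Fst were past 2-fold in both jaws without the shared barcodes too, and Bmp4 was at -0.29 in maxillary epithelium.

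Of 13 considered FGF genes, the ligand Fgf1 and the receptor Fgfr1 were higher and the FGF carrier Fgfbp1 and the target Etv5 lower, next to 4.81% and 2.10% of all genes. Both lower genes were under 20 CPM at P1, and Fgf1 was at E15.5, in both jaws, so that they entered only through the stage in which they were high. Fgfr1 was at 69.3 and 301 CPM in maxillary and 153 and 354 CPM in mandibular epithelium, and Etv5 at 38.1 and 18.6 CPM and at 45.4 and 10.5 CPM. Fgf9, a ligand of the enamel knot, was at 16.5 and 25.4 CPM and at 21.4 and 24.2 CPM, and Fgf20 did not exceed 4.01 CPM in any library. In the absence of the shared barcodes Fgfr1 was at -0.17 and Fgf1 at 0.17 in maxillary epithelium, Etv5 was at -0.71 there, and Fgfbp1 was 2-fold lower in both jaws. None of the 7 considered ectodysplasin genes or the 9 Notch genes passed 2-fold in both jaws, which in lists of this size is near the 6.92% of all genes. Edar, the ectodysplasin receptor of the knot, was at 20.9 and 12.5 CPM in maxillary and 26.5 and 14.5 CPM in mandibular epithelium.

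The genes of suprabasal and surface layers made up the other main group. Of 18 considered, 17 were at least 2-fold lower at P1 in both jaws and none higher, where 2.10% of all genes considered were lower. Of the 17, 7 were under 20 CPM at P1 in at least 1 jaw and so entered only through E15.5 there, and the other 10, such as Krt13, Krtdap, Dmkn and Ly6d, reached 20 CPM in every library. Krt10, a keratin of differentiating epidermis, was the exception, with ratios of -0.30 and -1.15. The list summed to 10271 CPM in E15.5 maxillary, 2559 in P1 maxillary, 12303 in E15.5 mandibular and 2057 in P1 mandibular epithelium.

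Krt13, the suprabasal keratin of oral lining, was at 2943 and 646 CPM at E15.5 and P1 in maxillary and 4388 and 455 CPM in mandibular epithelium, a log2 ratio of -2.19 (-2.22 to -2.16) and -3.27 (-3.31 to -3.23). Krtdap, a secreted protein of differentiating keratinocytes, was at 1040 and 160 CPM and at 869 and 67.6 CPM, ratios of -2.70 (-2.76 to -2.65) and -3.68 (-3.79 to -3.58). Cnfn (cornifelin, of the cornified envelope) had 309 and 69 UMIs in maxillary and 103 and 3 UMIs in mandibular epithelium, ratios of -3.11 and -8.50 (-10.80 to -6.91). Both E15.5 levels were above both P1 levels for these 3 genes. Others of the list were Dmkn (dermokine) at -2.38 and -3.59, Ly6d (a surface protein of stratified epithelium) at -2.34 and -2.47, Krt6a (a keratin of activated and oral epithelium) at -2.14 and -3.14, and Grhl3 (a transcription factor of barrier formation) at -2.16 and -2.67.

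The counts behind these levels were uneven in E15.5 mandibular epithelium, where the top cell of each gene held 65.1% of the Krt13 UMIs, 58.0% of Krt6a, 48.5% of Dmkn, 45.9% of Ly6d and 37.7% of Krtdap. With the top cell of each gene left out of every library, 11 of 15 considered genes of the list were lower in both jaws, against 1.40% of all genes in that setting. Without the shared barcodes 16 of 18 were, against 1.61% of all genes, and Krt13 was at 667 CPM in shared and 590 CPM in unshared P1 maxillary cells.

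Cells rich in these transcripts made up a smaller share of the epithelium at P1 in each jaw. Cells with at least 10 UMIs per 10000 of Krt1, Krt10, Krt4, Krt13, Krtdap, Sbsn and Krt6a together, called suprabasal cells here by that rule alone, numbered 258 (34.5%), 176 (6.56%), 11 (10.2%) and 53 (3.53%) in the 4 libraries. They held 93.0% to 95.2% of the Krtdap UMIs and, of genes not used to choose them, 87.2% to 96.3% of Ly6d in the 4 libraries. They also held 50.4% to 72.9% of the UMIs of Krt15, a keratin of basal cells, which goes against the name, so that it stands for the rule and not for a layer. Within them Ly6d was at 2702 and 3096 CPM in maxillary and 7773 and 5240 CPM in mandibular epithelium.

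Without the suprabasal cells 326 genes were higher and 127 lower in both jaws. Of the list, 8 genes were still considered, and Dmkn and Ly6d were lower in both, where 1.73% of all genes were. Krt13 and Krtdap were too, but both had chosen the cells that were left out, and their ratios are only a description. Lypd3 and Dsg1a then had positive ratios in both jaws, 0.86 and 0.50 for Lypd3 and 0.69 and 0.80 for Dsg1a. Both were then under 20 CPM in every library, Lypd3 at 3.70 to 8.52 CPM and Dsg1a at 7.11 to 12.6 CPM. Krtdap was detected in 55.7%, 8.16%, 28.7% and 6.07% of epithelial cells, and in 28.5%, 4.92%, 10.2% and 2.33% at 1000 UMIs, in the 4 libraries. The share of immune cells with a Krtdap UMI was 4.89% in E15.5 maxillary and 0.676% or less in the other libraries. Of mesenchyme-gated cells, 5.32%, 0.872%, 2.17% and 5.61% had one, or 0.723%, 0.198%, 0.252% and 1.30% at 1000 UMIs, so that in P1 mandibular molars the share in epithelium was little above that in mesenchyme.

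**Figure D4:**
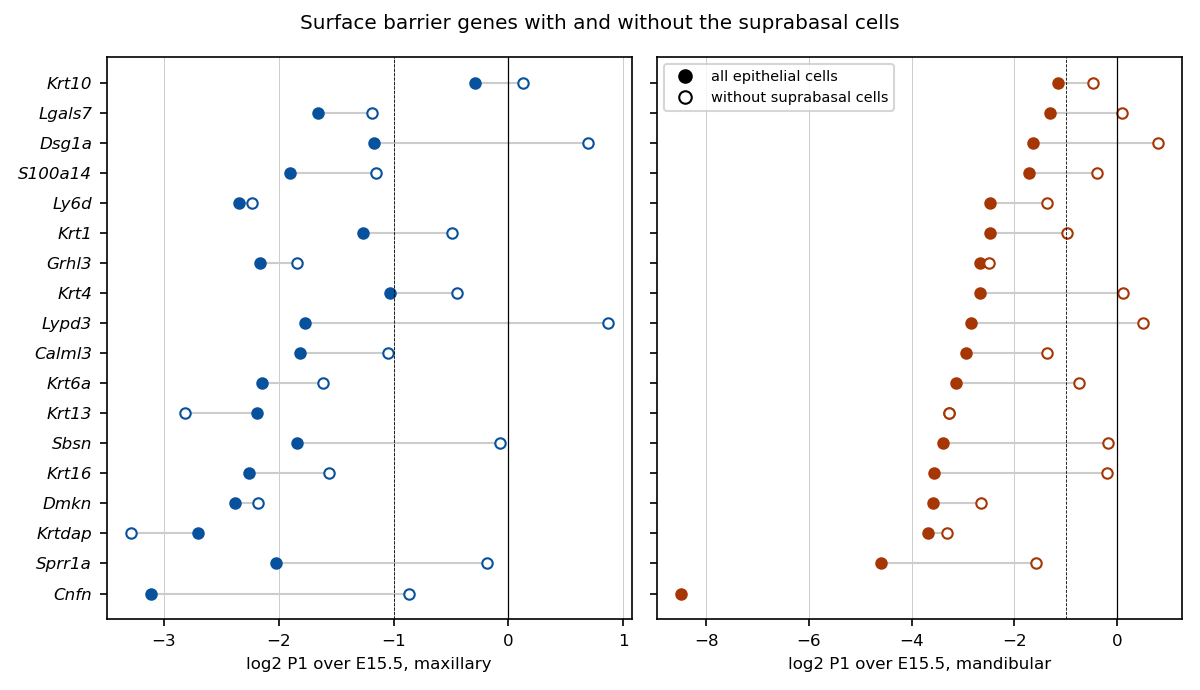
Log2 ratio of the epithelial level at P1 over E15.5 for the 18 considered surface barrier genes, in maxillary (left) and mandibular molars (right), over all epithelial cells (filled) and without the suprabasal cells (open), with a dashed line at 2-fold lower and no open point where a ratio had no support. Without those cells Dsg1a and Lypd3 lie above 0 in both jaws, Krt10 in maxillary and Krt4 and Lgals7 in mandibular molars. Of these, Dsg1a, Lypd3 and Krt4 were then under 20 CPM in every library. Dmkn and Ly6d stay 2-fold lower or more in both jaws, as do Grhl3 and Calml3, then under 20 CPM, and Krt13 and Krtdap, which were used to choose the cells.

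Leading lower genes outside that list had other roles. Krt15, a keratin of basal cells, was at 3078 and 366 CPM in maxillary and 754 and 159 CPM in mandibular epithelium, with log2 ratios of -3.07 (-3.11 to -3.04) and -2.25 (-2.34 to -2.16). Sox6, a transcription factor, was at 701 and 110 CPM and at 309 and 62.0 CPM, and Adamts18, a secreted metalloprotease, at 149 and 18.5 CPM and at 104 and 19.9 CPM. Fgfbp1 was at 150 and 17.7 CPM and at 118 and 7.28 CPM, ratios of -3.09 (-3.24 to -2.93) and -4.02 (-4.32 to -3.71). The stages did not overlap for these genes, nor for Ndufa4l2 (a mitochondrial protein induced by low oxygen), Anxa1 (annexin A1) and Dgki (a diacylglycerol kinase), whose ratios ran from -1.96 to -3.02. All 12 leading lower genes were still lower in maxillary epithelium without the shared barcodes, Anxa1 only just, and the mandibular ratios were unchanged in that setting.

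Without the suprabasal cells Krt15, Sox6, Adamts18, Ndufa4l2, Anxa1 and Dgki were lower in both jaws, with maxillary ratios from -1.60 to -3.35, and Fgfbp1 fell under 20 CPM in mandibular epithelium. Of the 7 considered simple and basal keratins, Krt15 and Krt19 were lower in both jaws, next to 2.10% of all genes. Krt19 was under 20 CPM at P1 in 1 jaw and entered there only through E15.5. Krt19 was at 148 and 69.6 CPM in maxillary epithelium, with log2 ratios of -1.09 and -2.26 in the jaws, and without the shared barcodes its maxillary ratio was 0.60. Krt17, at 1494 to 2148 CPM in the 4 libraries, had ratios of -0.52 and 0.05, and Krt8 of -0.39 and -1.39.

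Of 22 considered basement membrane and hemidesmosome genes, 4 were higher at P1 in both jaws and 2 lower, where 4.81% and 2.10% of all genes were. Fras1, a large matrix protein under epithelia, was at 129 and 827 CPM in maxillary and 208 and 1173 CPM in mandibular epithelium, a log2 ratio of 2.69 (2.61 to 2.76) and 2.50 (2.36 to 2.64). Itgb6, Itga2 (integrin chains) and Frem2 (a partner of Fras1) were also higher in both jaws, and the collagen IV chains Col4a5 and Col4a6 lower. Both lower genes were under 20 CPM at P1 in at least 1 jaw, and Itgb6 was at E15.5 in both jaws. They entered there only through the stage in which they were high. Col4a6 was at 134 and 18.7 CPM in maxillary and 34.7 and 11.1 CPM in mandibular epithelium. The remaining 16 did not pass 2-fold in both jaws. Dsg3 was the 1 of 9 desmosome genes that was lower in both jaws, Cldn10 the 1 of 8 tight junction genes, and Sfn and Krt19 were the 2 of 18 epithelial identity genes, and in lists this short 1 or 2 calls are little beyond the 2.10% of all genes.

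Without the shared barcodes Col4a5, Col4a6, Dsg3 and Sfn were still lower in both jaws and Itgb6 higher. The maxillary ratio of Fras1 was then 0.44, that of Itga2 -0.82 and that of Frem2 -1.08. Fras1 was at 1082 CPM in shared and 175 CPM in unshared P1 maxillary cells.

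Of the cell cycle genes 2 of 33 in S phase and 0 of 45 in G2/M were 2-fold lower in both jaws, next to 2.10% of all genes. All 33 considered S phase genes had negative log2 ratios in both jaws, as did 34.2% of all genes, with medians of -0.48 and -0.96. Ccne1 (cyclin E1) and Rrm2 (a ribonucleotide reductase subunit) passed 2-fold in both jaws. These 2 genes were under 20 CPM at P1 in at least 1 jaw and so entered only through E15.5 there. Of 45 G2/M genes 31 were negative in both jaws, next to 34.2% of all genes, and none passed 2-fold in both, with medians of -0.10 and -0.70. Top2a, a topoisomerase of dividing cells, was at 240 and 210 CPM in maxillary and 268 and 120 CPM in mandibular epithelium, and Mki67 at 133 and 134 CPM and at 125 and 85.4 CPM. Cells with a UMI of either made up 42.4%, 30.2%, 43.5% and 29.2% of the epithelium in the 4 libraries. At 1000 UMIs a cell, Mki67 was seen in 9.49%, 7.56%, 9.26% and 5.80% of cells. Without cells with Mki67 or Top2a 441 genes were higher and 218 lower. Cdkn1c, a cell cycle inhibitor expressed from the maternal allele, was lower in both jaws, with 535 and 186 CPM in maxillary and 419 and 92.6 CPM in mandibular epithelium. When the shared barcodes were dropped, the medians were -0.32 and -0.96 for S phase and -0.22 and -0.70 for G2/M genes, Ccne1 and Rrm2 were still lower in both jaws, and Cdkn1c was at -0.46 in maxillary epithelium.

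Genes of fetal growth were lower at P1 in part. Igf2bp1, an RNA-binding protein of fetal tissue, was at 55.0 and 7.36 CPM in maxillary and 34.7 and 3.69 CPM in mandibular epithelium, log2 ratios of -2.90 and -3.23, and its ratios in mesenchyme-gated cells were -1.25 and -1.96. The imprinted transcript H19 was at 613 and 193 CPM and at 500 and 157 CPM, and Meg3 at 625 and 230 CPM and at 618 and 179 CPM. Of 15 considered genes of this list, Igf2bp1, H19, Meg3 and Plagl1 were lower in both jaws and Arid3a higher, next to 2.10% and 4.81% of all genes, with medians of -0.74 and -1.02. Igf2bp1 was under 20 CPM at P1 and Arid3a at E15.5, in both jaws, so these 2 entered only through the stage in which they were high. Igf2bp1 and H19 were also lower in both jaws without the shared barcodes, whereas Meg3 and Plagl1 were at -0.70 and -0.65 in maxillary epithelium and Arid3a, at 1.14 there, was under 20 CPM.

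Of 50 considered secretory pathway genes 1 was 2-fold higher in both jaws, next to 4.81% of all genes. Of the 50, 44 had positive log2 ratios in both jaws, as did 41.4% of all genes, and Kdelr3, a receptor that returns proteins to the endoplasmic reticulum, was the single gene past 2-fold in both, with 12.6 and 54.9 CPM in maxillary and 20.4 and 81.7 CPM in mandibular epithelium. Kdelr3 was under 20 CPM at E15.5 in maxillary epithelium and entered there only through P1. The medians of the list were 0.29 and 0.42, next to 0.08 and -0.02 for all genes considered. They were 0.11 and 0.05 without the enamel-matrix cells, next to 0.10 and 0.04 for all genes. Dropping the shared barcodes gave medians of 0.07 and 0.42, and Kdelr3 was then at -0.54 in maxillary epithelium. Of 17 glycolysis genes the glucose transporter Slc2a1 and the lactate transporter Slc16a3 were lower in both jaws, next to 2.10% of all genes, and both missed 2-fold in maxillary epithelium without the shared barcodes. Slc16a3 was under 20 CPM at P1 in both jaws and so entered only through E15.5. None of the 36 nuclear oxidative phosphorylation genes, 83 ribosomal protein genes, 13 mitochondrial transcripts or 10 insulin-like growth factor genes passed 2-fold in both jaws, against 6.92% of all genes. The 16 dissociation stress genes had medians of -0.96 and -0.26, and none passed 2-fold in both jaws, the early response gene Fos being at 570 and 244 CPM in maxillary and 293 and 235 CPM in mandibular epithelium.

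Of 14 calcium-binding genes, Calb1 and S100a1 were higher and Anxa1 and S100a14 lower, next to 4.81% and 2.10% of all genes, and both higher genes were under 20 CPM at E15.5 in at least 1 jaw. S100a1 was at 13.7 and 55.8 CPM in maxillary and 8.16 and 21.3 CPM in mandibular epithelium, and was higher in both jaws without the shared barcodes too. Among 5 considered genes of antigen presentation and interferon response Ifitm3, an antiviral membrane protein, was the 1 that was lower in both jaws, with 315 and 110 CPM in maxillary and 302 and 84.7 CPM in mandibular epithelium, and it was at -0.97 in maxillary epithelium without the shared barcodes.

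**Figure D5:**
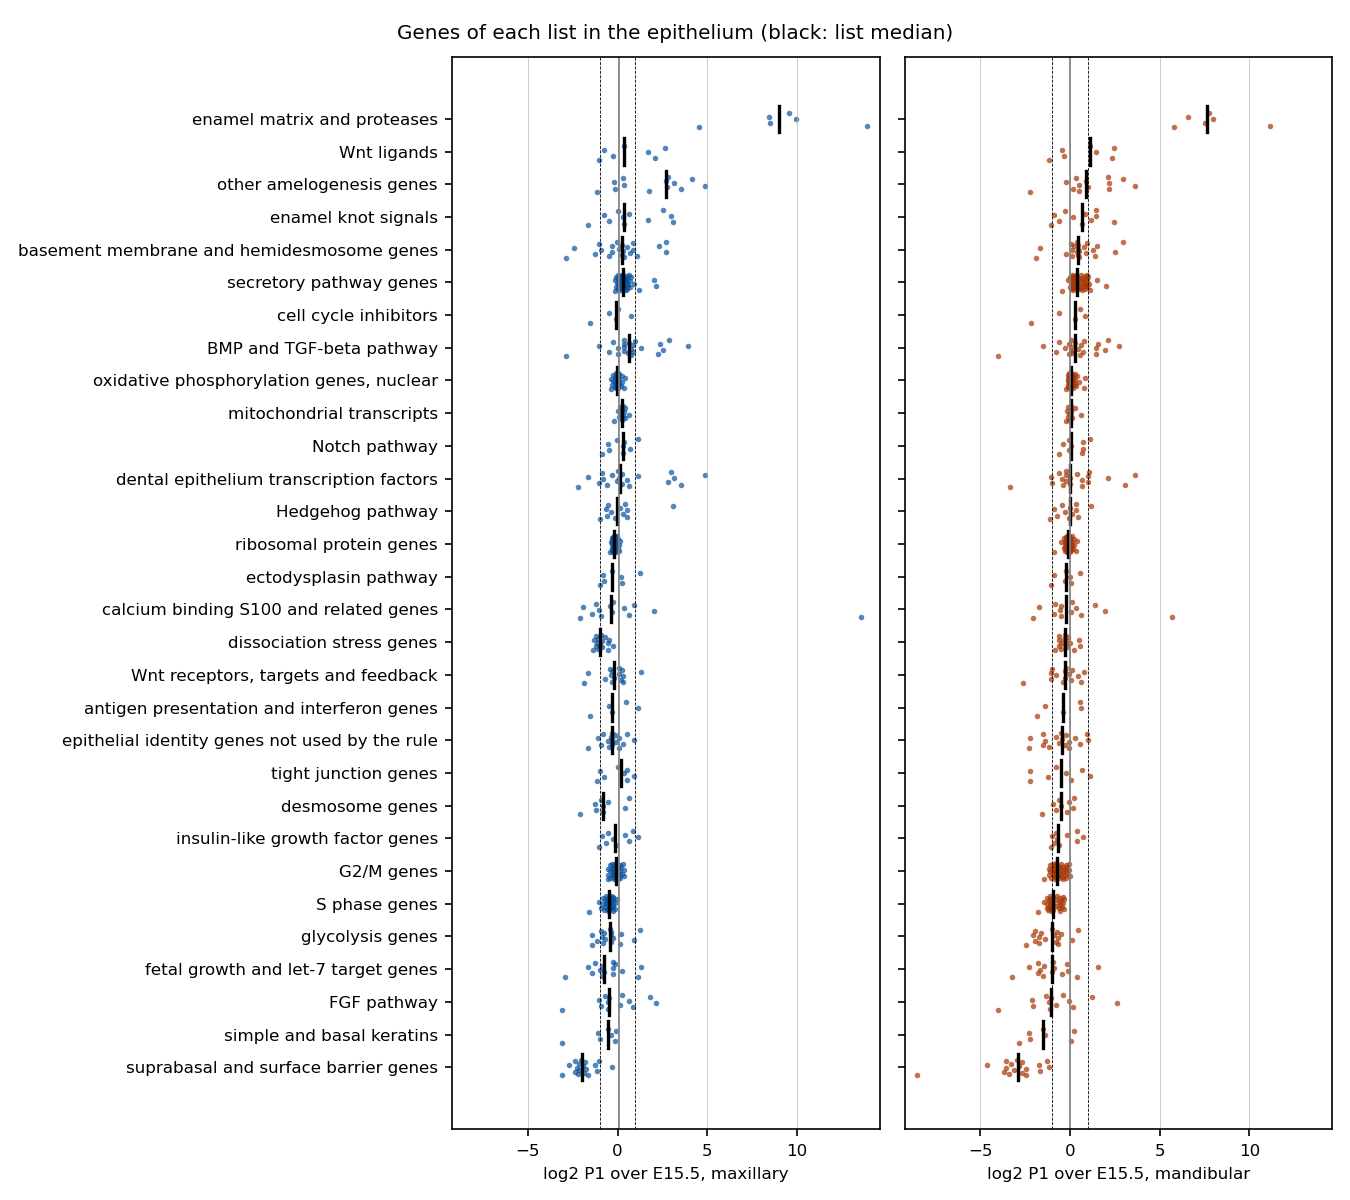
Log2 ratio of the epithelial level at P1 over E15.5 for the considered genes of 30 lists in maxillary (left) and mandibular molars (right), with 1 point per gene, the list median in black, the median of all genes considered as a grey line and dashed lines at 2-fold. Enamel matrix genes, considered mostly through their P1 level, lie far to the right, surface barrier genes to the left, and most other lists straddle 0.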

How the data were processed

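Single-cell RNA-seq counts of 4 libraries were used as deposited by the authors: UMI counts per gene and barcode, filtered matrices from Cell Ranger 7.0.1 (matrix header) on mm10 (submitters' processing notes), not normalized. The filters and doublet removal of the study were not repeated, and in an alternative the barcodes with the highest Scrublet scores (0.8% per 1000 barcodes) were removed instead. Counts were summed over the epithelial cells of each library, scaled to 1000000 UMIs and compared between stages within a jaw. Gene positions came from a GENCODE annotation of mm10. Levels have exact Poisson, shares exact Clopper-Pearson and ratios exact binomial 95% intervals, which cover counting error only. A count of 0 was set to 3 UMIs over the library. Mesenchyme-gated cells had at least 20 collagen and under 3 epithelial marker UMIs per 10000, and immune-gated cells at least 10 immune marker and at most 5 collagen UMIs per 10000. Samples were grouped by their labels, and with 1 library per stage and jaw no test was made.

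Named were the first 12 genes in each direction (ranked as described, without the 7 genes of the rule, mitochondrial, ribosomal protein, haemoglobin and sex-linked marker genes and predicted models), the most abundant and most changed members of each list, and a fixed set of tooth genes. The other members named were chosen after their values were seen. The cells, lists and genes were all chosen with earlier results of these data known. The counting was tested on simulated data. The results of 1 gene, and 1 alternative that rests on it, are not reported here. Alternatives covered thresholds, scaling, depth, doublets, shared barcodes and subsets of cells. Python 3.11.15, numpy 2.4.6, scipy 1.17.1, pandas 2.3.3, scanpy 1.11.5 and matplotlib 3.10.9 were used.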

Additional observations from a re-analysis of the deposited data

Results flagged for a closer look

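Some genes differed between the stages in opposite directions in the 2 jaws, and for each of them the difference between the jaws was not tested. Past 2-fold there were 35, of which 28 were higher at P1 in maxillary and lower in mandibular epithelium and 7 the reverse. Crabp1, a retinoic acid-binding protein, had log2 ratios of 5.01 and -4.16, Thsd7b of 3.4 and -3.8, and Gstm1, a glutathione transferase, of 4.46 and -2.65. In P1 maxillary epithelium these 3 were nearly absent from shared and abundant in unshared cells, with 1.9 and 311 CPM for Crabp1, 5.8 and 508 CPM for Thsd7b and 4.8 and 1661 CPM for Gstm1. In E15.5 mandibular epithelium the top cell of each gene held 74.3% of the Thsd7b UMIs, 11.7% of Crabp1 and 20.7% of Gstm1. The muscle genes Mylpf (-2.21 and 3.85) and Acta1 (-1.67 and 4.1) went the other way, and the top E15.5 maxillary cell of each held 93.6% and 93.8% of their UMIs there. Stfa1, a cystatin, was at -1.92 and 2.01, with 84.8% of its E15.5 mandibular UMIs in 1 cell.

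Hmga2 (0.25 and -0.45), Krt17 (-0.52 and 0.05) and Sostdc1 (0.3 and -0.3) changed sign between the jaws with ratios under 2-fold, and Lin28b (1.2 and -2.66) with levels under 20 CPM. The Lin28b ratios rest on 12 and 53 UMIs in maxillary and 6 and 10 UMIs in mandibular epithelium.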

How the results depend on the processing

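No paired analysis was possible because each stage and jaw had 1 library, so that within a jaw the compared groups shared 1 replicate number, and no test was made. This holds for pairs of replicates within a jaw only. Across the jaws, a fit with jaw as a block was possible and would leave 1 residual degree of freedom, but it was not run. The 352 higher and 154 lower genes became 201 and 82 at 50 CPM, 670 and 390 at 1.5-fold, and 125 and 34 at 4-fold. Dropping the shared barcodes from both P1 libraries gave 140 higher genes. Keeping only shared cells in P1 maxillary epithelium gave 252 lower genes, and leaving out the top cell of each gene gave 100, both settings chosen after seeing the data. The other 67 counts of genes or cells stayed within 1.5 times the main count, though not always with the same genes. Thinned to 1000 UMIs, 216 of the 352 higher and 79 of the 154 lower genes remained and 20 reversed in 1 jaw, and with the mean of per-cell levels 250 and 84 remained. Cell numbers moved to 2494 in P1 mandibular molars with the shared barcodes kept, to 966 there with at most 2 collagen UMIs per 10000, to 1546 in P1 maxillary molars without shared barcodes, and to 1138 with only these. Of 3791 log2 ratios of 95 genes over 20 alternatives, 17 reversed, 1024 moved beyond the counting interval and 2750 did not. The 17 were all of genes called in both jaws, and sign changes of uncalled genes are not among them. Such changes occurred in maxillary epithelium for Sox2, Ptch1 and Wnt10a without the shared barcodes and for Krt10 without suprabasal cells. Without the shared barcodes the maxillary ratio became -0.29 for Bmp4, -0.17 for Fgfr1, -1.08 for Frem2, -0.82 for Itga2, -0.54 for Kdelr3, 0.60 for Krt19, -1.32 for Odam, -0.77 for Shh, -1.33 for Wnt3a and -1.31 for Wnt6. Without suprabasal cells it was 0.69 for Dsg1a and 0.86 for Lypd3, and the mandibular ratio 0.80 for Dsg1a, 0.50 for Lypd3, 0.12 for Krt4 and 0.089 for Lgals7. Thinned to 1000 UMIs Wnt5a was at -0.29 in mandibular epithelium. The causes were not tested. Centring and other scalings gave 328 to 372 higher and 173 to 210 lower genes. E15.5 mandibular epithelium, with 108 cells, limits the precision of every mandibular ratio.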

Other observations

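The epithelial share of the cells that passed the filters was 7.73% in E15.5 maxillary, 16.3% in P1 maxillary, 1.64% in E15.5 mandibular and 15.9% in P1 mandibular molars. Without the gland-like or nasal cells 364 genes were higher and 179 lower at P1 in both jaws, and without cells carrying immune, endothelial, glial, neuronal, muscle or erythroid markers 350 and 164.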
